A study of Mus musculus with 64 samples.

Results

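The murinoglobulin and alpha-macroglobulin genes of the mouse were followed across liver, omental adipose tissue and skeletal muscle of mice with and without Myc. The 4 members were Mug1 and Mug2 (murinoglobulins), Pzp (pregnancy zone protein) and A2m (alpha-2-macroglobulin). They were chosen by gene symbol, each matched to 1 row of a table of 36332 genes, and the set was selected on the values of Mug2, which had been seen far lower in KO than in WT liver. The KO against WT values of the members in liver are therefore given as a description, without a test.

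RNA-seq libraries came from 64 samples in 12 groups. KO mice (MycKO) carried a cre/ERT2 allele at Gt(ROSA)26Sor and a floxed Myc allele, on B6.129 backgrounds. The WT controls are labelled C57/B6. By the labels, mice of both genotypes received 5 daily tamoxifen injections into the abdomen (75 mg/Kg, in corn oil) at weaning once they weighed at least 15 g, and were sampled at 5 or 20 months of age. Each genotype had 6 libraries of liver and 6 of adipose tissue at 5 months, and 5 of every tissue at 20 months. For muscle at 5 months there were 4 from KO and 6 from WT mice. Expression from Gt(ROSA)26Sor is not limited to 1 tissue, so loss of Myc in liver cells and loss elsewhere cannot be told apart. Recovered depth was 15.4 to 28.5 M reads per library (M, 1e6). Of 14 animal numbers at 5 months, 8 recur in 3 tissues and 4 in 2 tissues. At 5 months 12 libraries, 2 of each genotype in each tissue, carried Xist, the transcript of the inactive X chromosome, and no 20-month library did. Myc itself was lower in liver in every KO library (1.16 to 4.04 at 5 months and 1.12 to 2.92 at 20 months) than in any WT library (5.46 to 33.7 and 5.36 to 7.61), in the table's normalised units. Of all genes tested in liver, 0.0619% at 5 months and 1.01% at 20 months were lower in this way. Over 32 fits, described below, Myc had an adjusted p under 0.05 in 30 at 5 months and in 1 at 20 months. The main limma fit did not reach it at 20 months.

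Alpha-macroglobulins are large secreted glycoproteins that trap proteinases. A proteinase cuts the bait region of the inhibitor, the protein folds around it, and the complex is taken up through the receptor LRP1. In mouse plasma, Pzp supplies the many-subunit form and the murinoglobulins single-chain forms, and hepatocytes are the main source of both. Complement C3, C4 and C5 are relatives of the alpha-macroglobulins.

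All 4 genes lie on chromosome 6 (GRCm38.p6 coordinates). A2m spans chr6:121636165-121679238, Mug1 chr6:121838496-121889057 and Mug2 chr6:122006729-122085968. Pzp lies farther along, at chr6:128483567-128526720. Mug2 starts 0.118 Mb after the end of Mug1. The main transcripts hold 36 exons for Mug1, A2m and Pzp and 35 for Mug2, with coding lengths of 4428, 4422, 4485 and 4353 bases. Over aligned coding bases Mug1 and Mug2 were 95.1% identical, whereas Mug1 was 69.0% identical to A2m and 63.5% to Pzp.

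The likeness of Mug1 and Mug2 bears on how far their reads can be told apart, so the 60-base coding window in which they differ most is shown first. It lies in exon 18 of both genes, at chr6:121873620-121873679 in Mug1 and chr6:122063560-122063619 in Mug2 (plus strand, GRCm38), and holds 19 differences, set in capitals. The median 60-base window held 3 differences, and the longest identical run was 182 coding bases.
Mug1: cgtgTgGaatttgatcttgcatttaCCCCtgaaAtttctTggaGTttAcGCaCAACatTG
Mug2: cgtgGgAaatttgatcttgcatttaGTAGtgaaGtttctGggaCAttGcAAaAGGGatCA

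Of all 50-base windows of the Mug2 transcript, 21.3% occurred unchanged in Mug1, and 0.971% of 150-base windows did. A larger share of Mug2 was shared with the neighbouring pseudogene transcript Mug-ps1, 37.1% of 50-base windows and 18.7% of 150-base windows. Mug-ps1 and 3 other loci of the cluster (Gm7298, Mug4-ps and Gm10319) had no matching row among the deposited values. Their reads could therefore not be followed here. No 50-base window of Pzp or A2m occurred in any other of the 9 family loci compared. How reads that match several places were counted is not given in the sources used here, so values of Mug1 and Mug2 carry an uncertainty that those of Pzp and A2m do not.

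The regions before the starts of Mug1 and Mug2 are shown because the levels of these neighbours diverged in KO liver. They are the 250 bases before the start that the RefSeq promoter table (GRCm38.p6) uses, which for both genes lies inside the span given above, at chr6:121838291-121838540 for Mug1 and chr6:122006548-122006797 for Mug2, both plus strand, and 3 of the 4 members had an entry there. Capitals mark bases without an identical partner in the alignment. Of 206 aligned bases, 196 (95.1%) were identical, with the Mug2 window displaced by 35 bases.
Mug1: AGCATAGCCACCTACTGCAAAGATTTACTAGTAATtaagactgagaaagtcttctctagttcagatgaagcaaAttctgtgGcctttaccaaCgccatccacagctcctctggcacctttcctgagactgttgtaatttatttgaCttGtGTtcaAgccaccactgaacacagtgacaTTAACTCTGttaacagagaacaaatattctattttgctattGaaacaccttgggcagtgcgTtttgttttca
Mug2: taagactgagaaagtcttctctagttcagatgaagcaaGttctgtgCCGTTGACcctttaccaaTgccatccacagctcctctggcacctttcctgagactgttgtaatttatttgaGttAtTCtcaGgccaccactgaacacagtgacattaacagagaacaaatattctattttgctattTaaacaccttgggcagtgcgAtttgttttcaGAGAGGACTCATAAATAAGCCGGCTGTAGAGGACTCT

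The sequences CACGTG, TTCNNNGAA and TATAAA were searched on both strands and had no match in these windows of Mug1, Mug2 or Pzp. They occurred in 6.02%, 7.02% and 12.4% of the 32851 windows of the same length in the table. GTTAAC, found in 2.56% of the windows, occurred in Mug1 at position -64 from that table's start and not in Mug2 or Pzp. These are matches of letters and say nothing on binding.

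Liver held nearly all of the transcript of Mug1, Mug2 and Pzp. The values are the table's normalised values, named CPM there although the column sums differ between libraries (0.529 to 1.64 M). In WT liver at 5 months, Mug1 ranged from 2919 to 13804 (median 6684, n = 6) and Pzp from 3951 to 8848 (median 5838). Mug2 was lower, 344.4 to 685.7 (median 488.1). Per kilobase of coding sequence the medians were 1509 for Mug1, 1302 for Pzp and 112 for Mug2. Ranges of Mug1 and Pzp overlapped, and every Mug2 value was below both.

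A2m was at the limit of detection throughout. In liver 16 of 22 libraries had a read, the highest value was 0.565 (11 reads), and a count of 0 allows up to 3 reads. The highest value in any tissue was 1.47, in adipose WT replicate 4 at 5 months, from 37 reads. A2m passed the filter on low values in no tissue, which needed a value over 1 in 5 liver or adipose libraries or 4 muscle libraries.

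**Figure D1:**
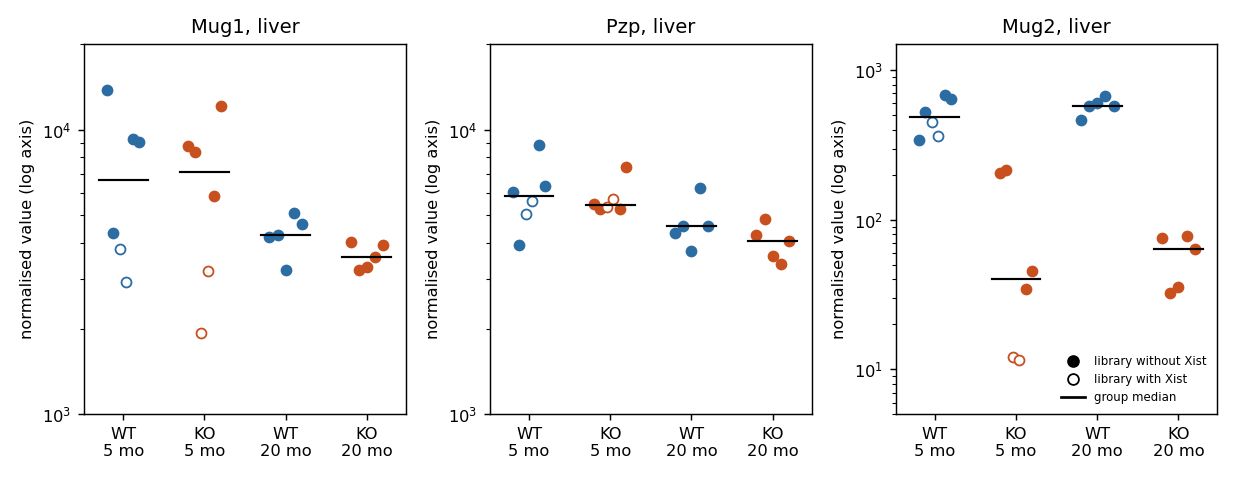
Normalised values (log axis) of Mug1, Pzp and Mug2 in each of 22 liver libraries by genotype and age in months (mo), with the group median as a line. Open circles are libraries with Xist. Mug2 is below every WT library in every KO library of the same age, while KO and WT overlap for Mug1 and Pzp.

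Mug2, a murinoglobulin gene, separated the genotypes in liver at both ages. At 5 months the 6 KO libraries ranged from 11.5 to 214.1 (median 40.02) against 344.4 to 685.7 (median 488.1) in 6 WT libraries. At 20 months the KO values were 75.4, 32.4, 35.7, 77.9 and 63.5, against 464.0, 578.6, 601.5, 676.9 and 580.2 in WT. The groups did not overlap at either age, and the lowest WT value was 1.61 times the highest KO value at 5 months and 5.96 times at 20 months. Mean KO values were 17.3% of WT at 5 months (87.1 ± 95.6, SD, n = 6, against 502.3 ± 143) and 9.82% at 20 months (56.96 ± 21.7 against 580.2 ± 76.3, n = 5 each). On the log2(value + 1) scale the differences, KO minus WT, were -3.34 and -3.41. In bulk tissue fewer cells of a type and less RNA per cell cannot be told apart.

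The rule used this contrast, so nothing is read from its place among all genes. For reference, every KO library lay below every WT library for 0.0619% of the 12924 genes tested at 5 months and 1.01% at 20 months, Mug2 being one of 8 and 130 genes.

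The 5-month KO livers were not alike in Mug2. KO replicates 1 and 2 had 204.5 and 214.1, replicates 5 and 6 had 34.4 and 45.7, and replicates 3 and 4, the libraries with Xist, had 12.2 and 11.5. Replicates 1 and 2 were therefore above all 5 KO livers of 20 months, and replicates 3 and 4 below them. The WT libraries with Xist had 452.1 and 361.5, inside the range of the other WT livers (344.4 to 685.7).

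Mug1 and Pzp, the abundant members, overlapped between genotypes. Mug1 was 1932 to 12114 (median 7093) in KO liver at 5 months against 2919 to 13804 in WT, and 4019, 3211, 3304, 3559 and 3932 in KO against 4197, 4279, 3218, 5110 and 4679 in WT at 20 months. The log2 differences were -0.13 and -0.24. Pzp was 5250 to 7402 (median 5431) in KO at 5 months against 3951 to 8848 in WT. At 20 months Pzp was 4277, 4849, 3603, 3363 and 4072 in KO and 4346, 4589, 3761, 6245 and 4607 in WT, and the log2 differences were -0.02 and -0.22. With Mug1 and Mug2 summed, the KO minus WT difference was -0.24 at 5 months and -0.41 at 20 months, since Mug2 was the smaller part of the sum.

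Mug1 spread far more at 5 months than at 20 months, where it was 3218 to 5110 (WT) and 3211 to 4019 (KO). At 5 months it was lower in the libraries with Xist, 2 of each genotype. The 5-month libraries without Xist still spread more than the 20-month livers. The 4 libraries with Xist had Mug1 of 3800 and 2919 (WT) and 1932 and 3194 (KO), and the 8 others 4346 to 13804 (WT) and 5858 to 12114 (KO), so the ranges did not overlap in either genotype. Pzp showed no such division, at 5048 to 5707 with Xist and 3951 to 8848 without. The albumin transcript Alb was higher with Xist in WT, at 130785 to 151488 against 77208 to 93629 without, with no overlap. In KO its ranges overlapped, at 76582 to 88636 with Xist and 77386 to 113154 without. The share of all genes divided by Xist was not counted, and each genotype had only 2 libraries with Xist. These divisions are therefore not read as particular to Mug1 or Alb.

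The share of Mug2 among the summed Mug1 and Mug2 reads removes the scaling of a library, and was compared next. In liver it ranged from 2.43% to 11.02% in WT at 5 months, 9.96% to 15.7% in WT at 20 months, 0.360% to 2.51% in KO at 5 months and 0.999% to 2.14% in KO at 20 months. The genotypes did not overlap at 20 months. At 5 months 1 WT library, replicate 1, reached down to the KO range with 2.43%: it had the highest Mug1 value of all livers (13804) and the lowest Mug2 value of the WT livers (344.4). Only KO replicate 2 (2.51%) was above it.

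Outside the liver, 8 libraries had at least 30 Mug1 reads and allowed the same share to be read. All 8 had 11 or 12 of the 12 hepatocyte markers above 1. Whether their reads are liver RNA, which would repeat the liver contrast used by the rule, was not tested. The shares are therefore not independent support for that contrast. In adipose tissue the 4 WT libraries had 6.09% (95% exact Clopper-Pearson interval 2.48 to 12.1, from 7 Mug2 and 108 Mug1 reads), 12.04% (6.57 to 19.7, from 13 and 95), 16.5% (12.5 to 21.2, from 50 and 253) and 24.6% (14.5 to 37.3, from 15 and 46). The 3 KO libraries had 2.82% (1.59 to 4.62, from 15 and 516), 3.85% (2.48 to 5.67, from 24 and 600) and 0%, with no Mug2 read beside 72 of Mug1 (upper exact bound 4.99%, and 4.17% by the limit of 3 reads). The muscle library, WT, had 13.8% (12.1 to 15.7, from 197 and 1228). All 3 KO shares were below all 5 WT shares, although the intervals of all 3 overlapped the WT interval of 2.48 to 12.1. The intervals cover counting error only, these libraries were picked for their Mug1 reads, and no test was made.

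At 20 months no animal number recurs between tissues, so animals shared with the liver libraries cannot be told. In 2 of the 5-month cases the same animal number had a liver library. WT replicate 6 at 5 months had a Mug2 share of 6.09% in adipose tissue and 6.68% in liver. KO replicate 4 at 5 months had 0 of 72 reads in adipose tissue and 0.360% in liver.

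**Figure D2:**
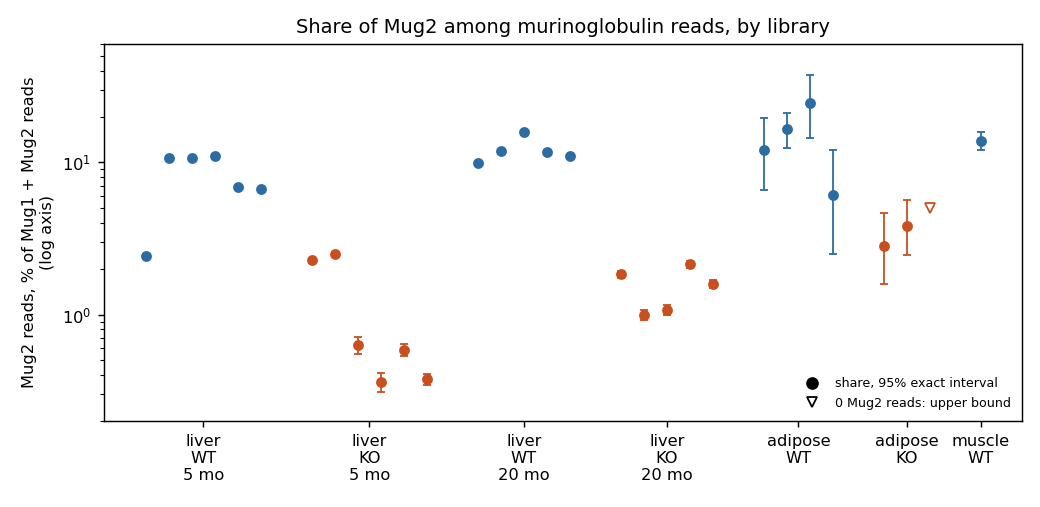
Mug2 reads as a percent of Mug1 plus Mug2 reads (log axis) in each liver library by group and in the adipose and muscle libraries with at least 30 Mug1 reads, WT in blue and KO in orange; bars are 95% exact binomial intervals and the open triangle is the upper interval bound of a library with 0 Mug2 reads. Measured KO shares reach 3.85% at most, with the triangle at 4.99%, and WT shares are 6.09% or more except for 1 liver library at 2.43%.

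The neighbours of the cluster were examined because Gt(ROSA)26Sor, the site of the cre/ERT2 allele, lies on the same chromosome. A2m, Mug1 and Mug2 start 8.57, 8.77 and 8.94 Mb beyond its start and Pzp 15.4 Mb beyond it. In liver at 5 months 9 of 12924 tested genes differed between KO and WT (limma, Benjamini-Hochberg adjusted p under 0.05), 0.0696% of those tested. At 20 months 3 genes did, 0.0232%. Mug2 is counted in both, and as it was chosen on this contrast nothing is read from that. Neither count holds firmly: at 5 months a fit on the 2 groups alone called 0 and DESeq2 47, and at 20 months edgeR called 1 and DESeq2 18.

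Apart from Mug2, the called genes within 20 Mb of Gt(ROSA)26Sor were Gt(ROSA)26Sor itself and Bid at 5 months, and Bid at 20 months. Bid, which encodes a pro-apoptotic BH3-only protein, starts 7.83 Mb beyond Gt(ROSA)26Sor. Bid fell in KO liver from 17.2 in WT to 8.28 at 5 months (log2 difference -0.996 ± 0.16 SE, adjusted p = 0.006) and from 25.4 to 7.32 at 20 months (-1.67 ± 0.17, adjusted p = 3.07e-05). The KO and WT libraries did not overlap, with 5.79 to 12.5 against 14.2 to 20.7 at 5 months and 5.37 to 8.83 against 22.7 to 33.5 at 20 months. The 5-month call was lost in the fit on the 2 groups alone and in the fit without libraries with Xist (largest adjusted p = 0.163), and the 20-month call was kept in all 32 fits.

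The noncoding transcript of Gt(ROSA)26Sor fell from 6.38 to 1.99 at 5 months (-1.27 ± 0.18, adjusted p = 0.00149), a call lost in the same 2 fits. At 20 months it was 4.90 in KO and 10.9 in WT (-1.03 ± 0.20, adjusted p = 0.0673), and its libraries did not overlap at either age.

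Unadjusted p-values under 0.05 were counted for tested liver genes in windows of 5 Mb. From 5 to 10 Mb beyond Gt(ROSA)26Sor, the window with Bid, Mug1 and Mug2, 11 of 38 genes (28.9%) had such a p at 5 months and 9 of 38 (23.7%) at 20 months, against 6.94% and 5.80% of all genes tested. From 0 to 5 Mb there were 7 of 47 (14.9%) at each age, and from 15 to 20 Mb, the window with Pzp, 2 of 19 and 1 of 19. From 10 to 15 Mb there were 6 of 50 at 5 months and 5 of 50 at 20 months. On the other side of Gt(ROSA)26Sor few genes were tested, and the 4 windows from 20 Mb before it up to it had 1 of 11, 3 of 6, 0 of 3 and 1 of 8 at 5 months. At 20 months they had 0 of 11, 2 of 6, 2 of 3 and 1 of 8. The window with Mug2 holds the gene that prompted the choice, so these counts are a description. Differences in it went both ways: Wnt5b, a secreted Wnt ligand, was 16.7 in KO and 9.62 in WT at 5 months (0.68, adjusted p = 0.334) and 20.3 and 9.79 at 20 months (1.002, adjusted p = 0.204), and the median log2 difference of the window was 0.02 and 0.03. Mug1, between Bid and Mug2, had differences of -0.13 and -0.24. Loss of Myc, the cre/ERT2 allele and the strain of origin of this stretch of chromosome cannot be told apart, because the KO mice carry them together. In adipose tissue Gt(ROSA)26Sor was 3.71 in KO and 7.20 in WT at 5 months (-0.85, limma unadjusted p = 7.9e-05, adjusted p = 0.0662). At 20 months it was 3.64 and 7.60 (-0.93, limma unadjusted p = 7.88e-05, adjusted p = 0.563). There every KO library was below every WT library for it and for Bid, as for 92 of 14286 genes tested, while at 5 months both overlapped. From 5 to 10 Mb, 4 of 43 adipose genes had an unadjusted p under 0.05 at 5 months and 6 of 43 at 20 months. Over all adipose genes 11.8% and 2.25% did. Bid in adipose tissue was 8.58 in KO and 11.03 in WT at 5 months (-0.44, adjusted p = 0.388) and 6.54 and 9.31 at 20 months (-0.46, adjusted p = 1).

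**Figure D3:**
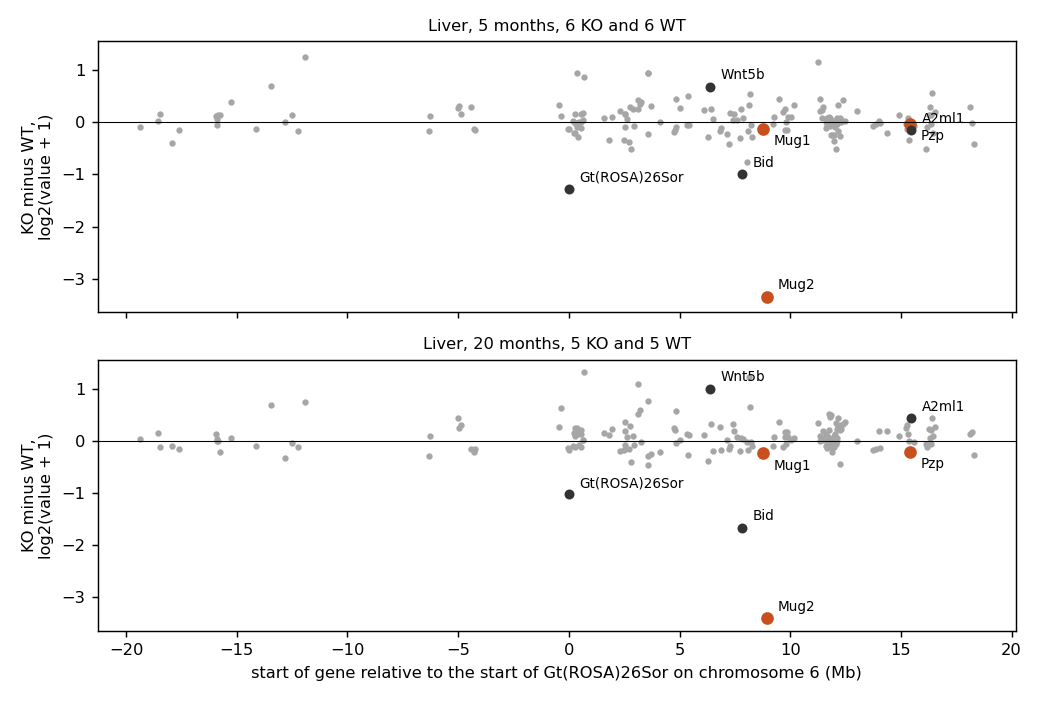
Liver difference of KO minus WT on the log2(value + 1) scale for each tested gene within 20 Mb of Gt(ROSA)26Sor on chromosome 6, by the distance of its start from that of Gt(ROSA)26Sor, at 5 months (top) and 20 months (bottom). Members are orange and other named genes black; Mug2 sits at -3.34 and -3.41, Bid at -0.996 and -1.67, and Mug1, between them, at -0.13 and -0.24.

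The genes whose level over the 22 liver libraries was most like that of Mug2 were Bid (Pearson r = 0.90), Sardh (0.75), Ivd (0.74), Rpl12 (0.69) and Myc (0.68), on log2(value + 1). These libraries include both genotypes, so a gene that differs between them takes a high value. Within the 11 WT and the 11 KO libraries Bid kept 0.63 and 0.67, Sardh had -0.05 and 0.71, Ivd 0.24 and 0.59, Myc -0.57 and 0.29, and Rpl12 -0.40 and -0.06. In the KO livers of 5 months, Bid was highest in replicates 1 and 2 (9.44 and 12.5), the livers with the highest Mug2, and in the other 4 it was 5.79 to 8.62.

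**Figure D4:**
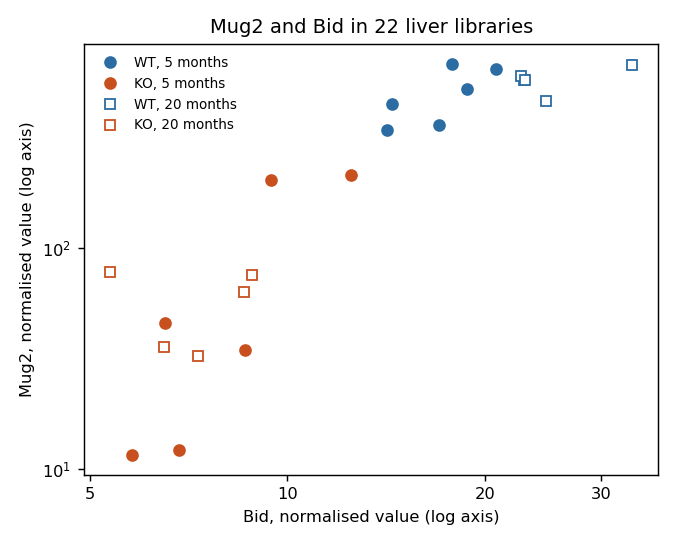
Mug2 against Bid in each of 22 liver libraries (normalised values, log axes), by genotype (colour) and age (circles 5 months, squares 20 months). The 11 KO libraries reach 12.5 for Bid and 214.1 for Mug2 at most, and the 11 WT libraries start at 14.2 and 344.4.

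Mug1 and Pzp had other partners. Nearest to Mug1 were Hc (complement C5, a relative of the alpha-macroglobulins; r = 0.88), Farp2 (0.88) and Klhl2 (0.87), and these kept 0.84 to 0.96 within each genotype. Nearest to Pzp were Itih2 (a heavy chain of the inter-alpha-trypsin inhibitors; 0.80), Itgb1 (0.79) and Cyp4a31 (0.78). Between members r was 0.59 for Mug1 and Pzp, 0.34 for Mug1 and Mug2 and 0.12 for Mug2 and Pzp. Mug1 and Mug2 had 0.04 within WT and 0.65 within KO. None was computed for A2m, whose reads were too few. The libraries share tissue, age and Xist groups, and these values are descriptions of likeness only.

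The comparison of 20 with 5 months was tested within each genotype, with no member called. In WT liver 929 of 12924 genes were called (7.19%), 366 higher and 563 lower at 20 months, and in KO liver 386 (2.99%), 217 higher and 169 lower, or 252 and 126 with TMM scaling. Mug1 had a log2 difference of -0.54 ± 0.41 (SE) in WT (adjusted p = 0.421) and -0.65 ± 0.41 in KO (adjusted p = 0.391). These values depend on the libraries with Xist, which were all of 5 months and low in Mug1. With Xist as a covariate Mug1 fell by 1.06 in WT (adjusted p = 0.0161) and by 1.17 in KO (adjusted p = 0.0139). Without those libraries it fell by 1.24 in KO (adjusted p = 0.016) and was 0.99 lower on that scale in WT, with an adjusted p of 0.0518.

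Pzp was -0.32 ± 0.19 in WT (adjusted p = 0.285) and -0.51 ± 0.19 in KO (unadjusted p = 0.012, adjusted p = 0.134), and no alternative brought it past the threshold. Mug2 had differences of 0.25 ± 0.56 (adjusted p = 0.815) in WT and 0.18 ± 0.56 (adjusted p = 0.891) in KO. The sign for Mug2 in KO turned in the count models, with Xist as a covariate, without the libraries with Xist, and without replicate 3 (-0.19) or replicate 4 (-0.20) of the 5-month KO livers.

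Genes that act with the members were taken from 7 lists. For these genes levels are group means ± SD of the normalised values, and differences with adjusted p are from limma. In the KO against WT comparison of liver none of them held a called gene at either age, where 0.0696% and 0.0232% of all genes were called. The list of relatives in the alpha-macroglobulin family had 5 of its 9 genes tested. The smallest p among them at 20 months was that of C4b, a complement C4 gene, at 1891 ± 194 in KO against 1607 ± 294 in WT (n = 5 each, limma adjusted p = 0.888). A2ml1, the neighbour of Pzp, was 13.1 ± 3.4 against 9.71 ± 4.4 (limma adjusted p = 0.889). Among proteinase inhibitors of the liver (35 tested), Kng1, the kininogen gene, was 2425 ± 142 in KO and 3047 ± 459 in WT at 5 months (n = 6 each, adjusted p = 0.577). Hamp, the iron hormone hepcidin of the acute-phase list, was 1392 ± 592 in KO and 2112 ± 180 in WT at 5 months (adjusted p = 0.66).

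With age in WT liver, 7.19% of all genes tested were called. Of 35 tested proteinase inhibitors 9 (25.7%) were called, 2 higher and 7 lower. Their median log2 difference was -0.32 against -0.01 over all genes. Serpina12 rose from 6.11 ± 5.8 to 46.1 ± 15 (log2 difference 3.11, adjusted p = 0.00922) and Serpina7, thyroxine-binding globulin, from 15.6 ± 25 to 49.7 ± 13 (2.61, adjusted p = 0.0385). Itih1, a heavy chain of the inter-alpha-trypsin inhibitors, fell from 1003 ± 168 to 717.8 ± 25 (-0.47, adjusted p = 0.0115), and Ahsg, fetuin A, from 11531 ± 3726 to 6078 ± 989 (-0.88, adjusted p = 0.0121). Without the libraries with Xist or without a filter on low values 3 of the list were called, with the 2 groups alone 1, and leaving out 1 library gave 3 to 10.

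Acute-phase and IL6 pathway genes, a class to which alpha-macroglobulins of other rodents belong, had 7 of 30 called in WT. That is 23.3%, against 7.19% of all genes, and all 7 were lower at 20 months (median -0.50). Fgb, the fibrinogen beta chain, fell from 6241 ± 1507 to 3538 ± 461 (-0.80, adjusted p = 0.0191), Hamp from 2112 ± 180 to 915.0 ± 273 (-1.26, adjusted p = 0.0262) and the metallothionein Mt1 from 1282 ± 1073 to 110.4 ± 76 (-3.05, adjusted p = 0.0297). Without the libraries with Xist 0 of these 30 were called, without a filter on low values 0, and leaving out 1 library gave 1 to 10. In KO liver 0 of 30 were called, where 2.99% of all genes were, with a median of -0.27. Whether the change with age depended on genotype was tested gene by gene in liver. Of all 12924 genes limma called 0, and edgeR and DESeq2 also called 0. The counts of 7 and 0 are therefore not read as a genotype difference, and the list was not tested as a set.

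Of 22 tested proteinases that the family can bind or that act beside it, 5 (22.7%) were called in WT, against 7.19% of all genes. Of these, 1 was higher (Plat, tissue plasminogen activator) and 4 lower, among them Ctsl (1377 ± 441 to 573.4 ± 59, adjusted p = 0.0061) and F2, prothrombin (2832 ± 331 to 2099 ± 135, adjusted p = 0.0302). Without the libraries with Xist or with the 2 groups alone 2 of these proteinases were called, and leaving out 1 library gave 2 to 6. Among the transcription factors Bcl6, a repressor, was higher (11.1 ± 4.7 to 48.3 ± 25, adjusted p = 0.00758) and Hnf4a, a master regulator of hepatocyte genes, lower (1256 ± 220 to 820.5 ± 76, adjusted p = 0.0142). Of 30 secreted proteins of the liver 4 (13.3%, against 7.19% of all genes) were lower, led by Apom, an apolipoprotein (332.8 ± 75 to 134.9 ± 38, adjusted p = 0.000397). They include Ahsg and Fgb, which are also counted in the inhibitor and acute-phase lists above. The count was 10 with DESeq2 and 2 with the 2 groups alone or without a filter. None of the 5 relatives was called.

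In KO liver with age, 2 of 35 inhibitors were called (5.71%, against 2.99% of all genes tested). Both were lower: Itih1 (889.5 ± 75 to 639.2 ± 15, adjusted p = 0.02) and Itih5 (22.9 ± 8.8 to 6.76 ± 1.5, adjusted p = 0.00436). DESeq2 called 7 of these inhibitors, the Xist covariate 5, and leaving out 1 library gave 1 to 6. The secreted proteins had 3 of 30 (10%, against the same 2.99%), all lower, among them Apom (302.3 ± 68 to 119.1 ± 25, adjusted p = 0.00081) and Cfb, complement factor B (1721 ± 165 to 1185 ± 120, adjusted p = 0.018), and 8 were called without the libraries with Xist. Among the receptors Cd36, a scavenger receptor, was higher (110.3 ± 90 to 308.0 ± 135, adjusted p = 0.0366) and Mrc1, the mannose receptor of macrophages and endothelium, lower (67.8 ± 22 to 38.7 ± 5.0, adjusted p = 0.0344), while without a filter or with the 2 groups alone 0 receptors were called. C4a, a complement C4 gene of the relatives list, was 9.14 ± 6.1 and 27.2 ± 10 (adjusted p = 0.0556). Macrophage markers moved with these comparisons: the summed level of 7 genes, each above 1 in every liver, was between 178.2 and 515.9 (WT) or 355.8 and 618.0 (KO) at 5 months. At 20 months it was between 174.4 and 277.3 (WT) or 213.7 and 302.2 (KO). The sum of 7 endothelial markers was 204.2 to 351.8 (WT) or 221.3 to 419.5 (KO) at 5 months and 158.1 to 227.5 (WT) or 164.0 to 220.4 (KO) at 20 months. The part of either cell type in the result was not tested. The summed level of 12 hepatocyte markers overlapped, 140680 to 261697 at 5 months and 150874 to 181614 at 20 months.

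Outside the liver, Mug1, Mug2 and Pzp were near 0 in most libraries. In adipose tissue Mug1 exceeded 1 in 7 of 22 libraries and Pzp in 8, with medians of 0.396 and 0.337. In muscle Mug1 exceeded 1 in 3 of 20 libraries and Pzp in 2, with a median of 0.0640 for Mug1 and of 0 for Pzp. Mug2 exceeded 1 in 1 library of each tissue.

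The libraries with Mug1 and Pzp were those with the albumin transcript Alb, the leading product of hepatocytes. The muscle library WT replicate 2 at 20 months had Mug1 74.4, Mug2 11.9, Pzp 62.4, Alb 1970 and Apoa1 225, while the other 4 of its group had Mug1 of at most 0.05 and Alb of at most 3.11. In adipose tissue KO replicates 2 and 1 at 20 months had Mug1 of 16.2 and 12.9, Pzp of 16.4 and 11.6 and Alb of 513.7 and 205.8. The other 3 KO adipose libraries of that age had Mug1 of 0.514 at most and Alb of 12.8 at most. The 5 adipose libraries with the most Alb were also the 5 with the most Mug1, and 4 of them were among the 5 with the most Pzp. Of the 3 with the most Alb, 2 were among the 3 with the most Mug1 and 2 among the 3 with the most Pzp.

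The proportion of Mug1 to Alb varied widely within each tissue. Mug1 per 1000 units of Alb was 14.5 to 77.4 in the 7 adipose libraries with at least 30 Mug1 reads and 37.8 in the muscle library, against 19.3 to 170.7 in liver. The lowest, KO replicate 4 at 5 months, was below the liver range. These libraries were picked for their Mug1 reads, and the adipose libraries with fewer had 0 to 75.7. The 12 hepatocyte markers were all above 1 in 5 of those 7 adipose libraries and in that muscle library. Whether liver RNA or local transcription gave these reads was not tested.

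**Figure D5:**
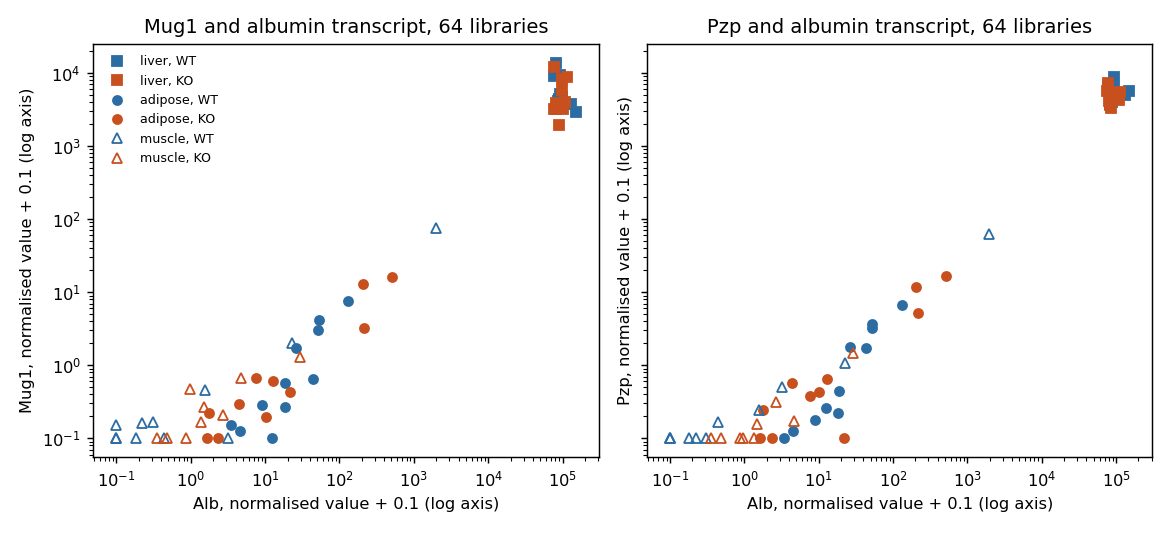
Mug1 (left) and Pzp (right) against Alb in all 64 libraries, as normalised values plus 0.1 on log axes; squares are liver, filled circles adipose tissue and open triangles muscle, WT blue and KO orange. Mug1 and Pzp are high in the adipose and muscle libraries with high Alb, and the muscle library at Alb 1970 stands apart from the other 19.

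In adipose tissue only Mug1 and Pzp passed the filter, and neither was called in any comparison. Called shares over the 14286 genes tested were 0.105% for KO against WT at 5 months, 0% at 20 months, 10.8% for age in WT, 14.2% for age in KO and 0% for the difference between the KO effects at the 2 ages. Mug1 differed between KO and WT by -0.27 ± 0.70 (SE) at 5 months (adjusted p = 0.916) and by 0.65 ± 0.76 at 20 months (adjusted p = 1). Pzp differed by -0.33 ± 0.70 (adjusted p = 0.893) and 0.71 ± 0.77 (adjusted p = 1). With age, Mug1 had 0.22 ± 0.73 in WT (adjusted p = 0.863) and 1.14 ± 0.73 in KO (adjusted p = 0.289), and Pzp 0.10 ± 0.74 (adjusted p = 0.939) and 1.14 ± 0.74 (adjusted p = 0.289). The difference of the KO effects was 0.92 ± 1.0 for Mug1 and 1.04 ± 1.0 for Pzp (adjusted p = 0.998 for both). Without the 5 libraries with the highest Alb the KO against WT difference of Pzp turned at 20 months (-0.23), its age difference in KO was 0.13, and its KO effects at the 2 ages differed by 0.27.

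At 20 months limma called 0 genes of adipose tissue between KO and WT, where 321 had an unadjusted p under 0.05; edgeR called 0 and DESeq2 10. For the difference of the KO effects 407 had such a p, and edgeR called 0 and DESeq2 6. In muscle no member passed the filter, so none was tested.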

How the data were processed

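RNA-seq of poly-A selected, strand-marked libraries was deposited by the authors as 1 table of normalised gene signal values, named CPM. Per the submitters' processing notes the builds were GRCm38.p6 and mm10; aligner, counter and scaling are not given in the sources used here. All values of every library were whole multiples of 1 read (tolerance 0.05 reads), so reads were recovered from them. Gene IDs were matched to RefSeq symbols for 35336 of 36332 distinct IDs. Each tissue was fitted with limma 3.58.1 on log2(value + 1) over 4 groups, after keeping genes with a value over 1 in as many libraries as the smallest group has, with Benjamini-Hochberg adjustment over all genes tested. Alternatives were edgeR 4.0.16 and DESeq2 1.42.0 on recovered reads, other pseudocounts, TMM scaling, no filter, an Xist covariate and leaving out libraries. The fit was tested on simulated data. Named genes were the members; up to 4 called genes per direction and list, or the 2 with the smallest p; called neighbours within 20 Mb; and the 5 or 3 genes most like a member. Wnt5b was added after its values were seen. Members and lists were chosen with earlier results of these data known. P-values measure the spread between these samples. Transcript sequences came from GENCODE for GRCm38. Results for some listed genes are not reported here.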

Additional observations from a re-analysis of the deposited data

Results flagged for a closer look

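In 27 sets of 4 to 6 libraries, each 1 group's values of Mug1, Mug2 or Pzp with a highest value of at least 1, 9 values, from 6 libraries, stood apart from the rest of their group, by a gap that exceeds the 95% critical value of Dixon's test. Chance gives this in about 1 in 20 groups of independent values, a figure that does not carry over here, since the sets were kept for a high value and the genes are high in the same libraries.

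The muscle library WT replicate 2 at 20 months was high in all of them, with Mug1 74.4 (next library 0.05), Mug2 11.9 (next 0) and Pzp 62.4 (next 0.406), beside an Alb of 1970. In adipose tissue KO replicate 4 at 5 months had Mug1 of 3.12 (next 0.566) and Pzp of 5.06 (next 0.478), with Alb at 215.3, and WT replicate 2 at 20 months had Mug2 of 1.46 (next 0.398), with Alb at 131.8. Lower values stood apart in muscle: Mug1 of 1.93 (next 0.364) in WT replicate 1 at 5 months and Pzp of 1.37 (next 0.215) in KO replicate 3 at 20 months, with Alb at 22.9 and 28.9. In liver, Pzp in KO replicate 6 at 5 months was 7402 (next 5707), in the KO liver with the highest Mug1.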

How the results depend on the processing

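The Mug2 difference between KO and WT liver stayed between -3.78 and -2.96 at 5 months and between -3.54 and -3.23 at 20 months when 1 library was left out, was -2.53 at 5 months without the libraries with Xist, and was -0.24 and -0.41 when Mug2 was summed with Mug1. The count of called members stayed at 0 in every tested comparison except liver ageing, where Mug1 was the 1 called in WT with an Xist covariate and the 1 called in KO with that covariate or without libraries with Xist. The sign of Mug2 turned with an Xist covariate in WT ageing (-0.29), and in KO ageing with DESeq2 (-0.59), edgeR (-0.57), the covariate (-0.36) and without libraries with Xist (-0.77), and its leave-one-out range there was -0.20 to 0.62. In adipose tissue Pzp turned in KO against WT at 20 months without the 5 libraries with the highest Alb (-0.23), and in WT ageing with a pseudocount of 0.1 (-0.52) and without those 5 (-0.15); leave-one-out ranges that crossed 0 were -0.37 to 0.37 for Pzp and -0.27 to 0.52 for Mug1 in WT ageing, and -0.56 to 0.0266 for Mug1 in KO against WT at 5 months.

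Counts over all genes moved more. With DESeq2, liver gave 47 and 18 for KO against WT at 5 and 20 months and 1459 and 778 for age in WT and KO, and adipose tissue 304, 10, 2696, 3297 and, for the difference of KO effects, 6. With only the 2 groups compared, liver gave 0, 6, 420 and 179 and adipose tissue 2 for KO against WT at 5 months, 2650 and 840 for age. Without libraries with Xist, liver gave 1 and 6 for KO against WT and 414 and 570 for age in WT and KO. Adipose tissue gave 534 for KO against WT at 5 months, 709 and 3277 for age. Without the 5 adipose libraries with the highest Alb the counts were 1081 for KO against WT at 5 months, 2320 and 272 for age. The Xist covariate gave 34 for adipose KO against WT at 5 months and 869 for WT age; edgeR gave 9 for adipose KO against WT at 5 months and 1 for liver at 20 months; no filter gave 7 and 1 for adipose KO against WT at 5 and 20 months and 245 for liver age in KO; a pseudocount of 5 gave 6 for liver KO against WT at 20 months. Leaving out 1 library, liver gave 6 to 25 and 1 to 7 for KO against WT and 467 to 1620 and 104 to 745 for age in WT and KO, and adipose tissue 2 to 52, 0 to 1, 718 to 2437 and 653 to 3172. The causes were not tested. The alternatives without Xist libraries in the fits and without the 5 Alb libraries were chosen after seeing the data. No paired analysis was possible because the labels give no replicate number that links KO and WT samples. Reads were few for A2m everywhere and for all members in most muscle libraries. Whether depth or absence of the transcript accounts for this was not tested.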
